A study of Homo sapiens with 2 samples.

Results

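The 7 genes described here encode proteins that act in mitochondria, and each was chosen by a CREB peak at its start. They are NDUFA10 and NDUFB5 of respiratory complex I, COX7C of cytochrome c oxidase, MRPL55 and MRPL47 of the mitochondrial ribosome, LIAS, which makes lipoate, and PTRH2, a mitochondrial peptidyl-tRNA hydrolase. They were selected from the 2495 gene symbols that the authors' deposited table pairs with a peak within 50 kb of a transcription start site (TSS). The values that chose them were the presence of a peak and its position, so neither is a finding. The table held 10 pairs for these genes. The pair with the summit nearest to the TSS was kept for each gene, which left 7 pairs on 6 of the 5285 peaks, since NDUFB5 and MRPL47 share a peak.

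The data are chromatin immunoprecipitation sequencing (ChIP-seq) of CREB in the human neuroblastoma line NGP, an established cell line grown without any labelled treatment in RPMI-1640 with 20% serum. There was 1 CREB ChIP library and 1 input library (DNA not immunoprecipitated), each made from 4 ng of DNA, and neither had a replicate. No value below therefore has an error between cultures, and no test between conditions was possible. The peak list does not measure expression, so markers of the cell line could not be checked in it, and the total reads of the libraries were not given in the files used here.

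CREB is a transcription factor activated by phosphorylation downstream of cAMP and calcium signals. It binds the cAMP response element (CRE), the palindrome TGACGTCA, and sites that hold only its core, TGACG. Respiratory complexes are built from subunits of the nuclear genome together with a few encoded by mitochondrial DNA, and the latter are translated by the mitochondrial ribosome. CREB is known for inducing the coactivator gene PPARGC1A, through which nuclear genes of mitochondria can be raised together.

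The stretches below were shown because they hold the sequence around the member peaks. Each is the part of the called peak that lies in a RefSeq promoter window of GRCh38.p14 (250 bases before to 50 after the gene start), except for COX7C, where the whole window is given because it covered 31 of the 178 bases of the peak. A window was found for 6 of the 7 genes. The peak shared by MRPL47 and NDUFB5 was read in the MRPL47 window, and the peak shared by PTRH2 and VMP1 in the direction of VMP1. Capitals mark every TGACG on either strand (CGTCA when read on the other strand), extended to the whole palindrome where one is present.

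NDUFA10, minus strand, chr2:240025332-240025592: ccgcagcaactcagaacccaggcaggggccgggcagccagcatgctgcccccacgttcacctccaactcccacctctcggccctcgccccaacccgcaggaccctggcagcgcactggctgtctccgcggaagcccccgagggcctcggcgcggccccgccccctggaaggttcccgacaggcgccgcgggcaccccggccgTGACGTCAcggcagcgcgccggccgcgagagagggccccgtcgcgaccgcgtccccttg
MRPL47 and NDUFB5, minus strand, chr3:179604640-179604896: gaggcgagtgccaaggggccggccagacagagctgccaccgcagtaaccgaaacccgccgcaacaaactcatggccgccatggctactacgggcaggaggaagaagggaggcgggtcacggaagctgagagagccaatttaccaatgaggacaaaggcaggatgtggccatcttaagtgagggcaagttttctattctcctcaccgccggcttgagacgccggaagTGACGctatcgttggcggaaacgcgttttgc
PTRH2 and VMP1, plus strand, chr17:59707504-59707703: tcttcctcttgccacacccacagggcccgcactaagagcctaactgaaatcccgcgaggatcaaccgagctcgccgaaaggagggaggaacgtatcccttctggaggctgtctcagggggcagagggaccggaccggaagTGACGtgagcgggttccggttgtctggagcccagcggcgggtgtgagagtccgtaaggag
LIAS and RPL9, plus strand, chr4:39458913-39459084: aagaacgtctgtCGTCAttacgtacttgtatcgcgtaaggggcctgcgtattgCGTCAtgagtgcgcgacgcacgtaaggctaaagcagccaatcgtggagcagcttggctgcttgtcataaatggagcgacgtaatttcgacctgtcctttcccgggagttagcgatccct
MRPL55, minus strand, chr1:228109250-228109377: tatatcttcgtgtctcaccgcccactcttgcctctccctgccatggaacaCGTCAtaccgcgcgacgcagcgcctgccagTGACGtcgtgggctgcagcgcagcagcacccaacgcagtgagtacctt
COX7C, plus strand, chr5:86617691-86617990: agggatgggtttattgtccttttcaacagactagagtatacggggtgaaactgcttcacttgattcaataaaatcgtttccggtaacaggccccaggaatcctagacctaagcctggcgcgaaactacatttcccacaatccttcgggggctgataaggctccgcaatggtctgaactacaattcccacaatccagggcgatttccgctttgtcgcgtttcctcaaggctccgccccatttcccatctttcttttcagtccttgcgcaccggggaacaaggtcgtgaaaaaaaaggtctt

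All 7 genes had a promoter peak (summit at most 1 kb from the TSS), as the choice requires, against 1.33% of all protein-coding genes (265 of 19974). The folds of the 6 peaks ran from 4.01 to 15.2, with a median of 7.07, beside a median of 5.61 (quartiles 4.82 to 7.22) over all 222 promoter peaks of protein-coding genes and 5.24 over the whole list. Fold here is the authors' enrichment at the summit over the background that the peak caller expected there. Fragment numbers were recovered from each fold and its p-value, and their intervals are exact Poisson intervals at 95% for counting error alone (no molecular identifiers are described). The number of fragments at the summit ran from 4 to 20, over expected backgrounds of 0.246 to 0.386 fragments. The peaks thus spanned the promoter peaks of the list from near its top to near its bottom.

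**Figure D1:**
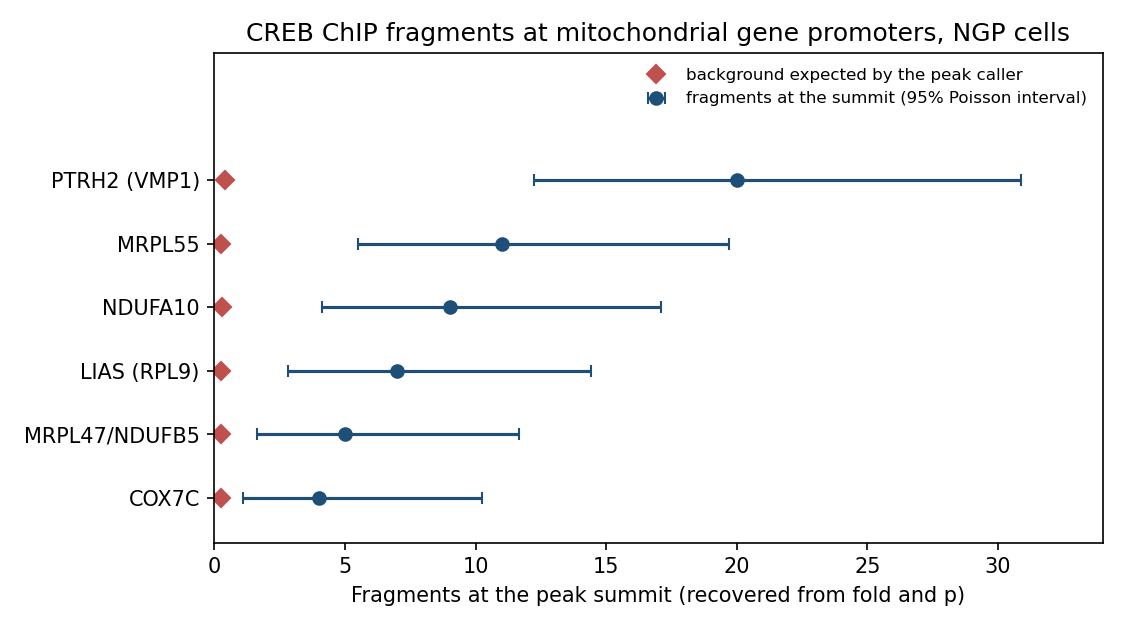
Fragments at the summit of each of the 6 peaks (circles, with 95% Poisson intervals) and the background expected by the peak caller (diamonds), in the 1 CREB ChIP library; names in brackets are neighbours at the same peak. The intervals of neighbouring peaks overlap, while that of the PTRH2 peak (12.2 to 30.9) lies wholly above that of the COX7C peak (1.09 to 10.2).

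**Figure D2:**
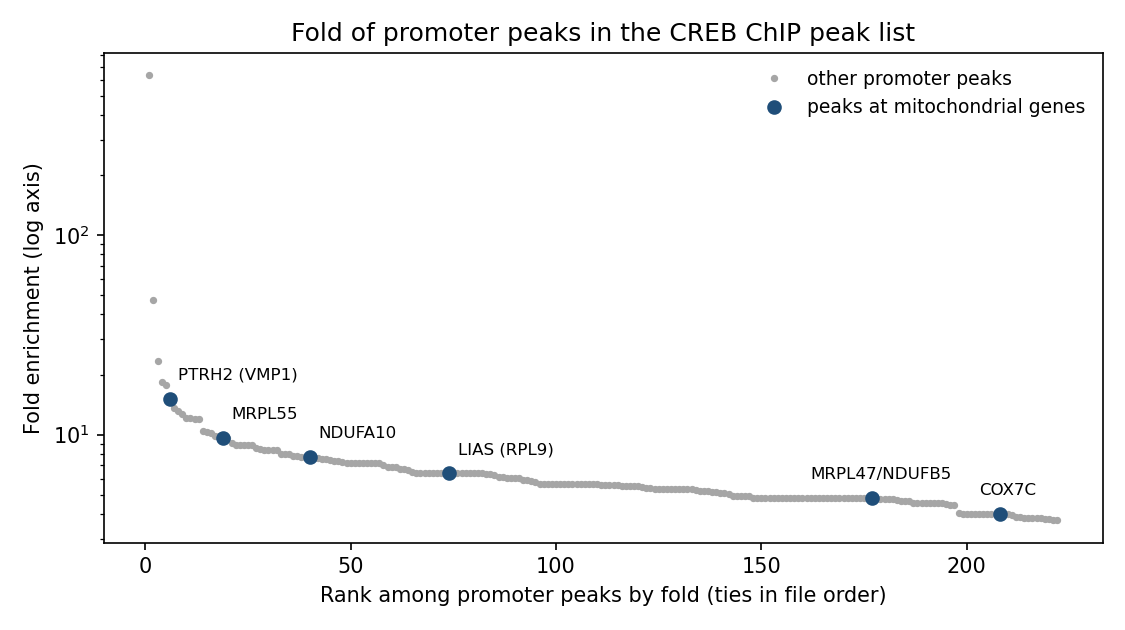
Fold enrichment (log axis) of the 222 promoter peaks in descending order, with the 6 peaks at mitochondrial genes as large circles. PTRH2 and VMP1 stand at rank 6 and COX7C among the lowest.

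Of the respiratory chain genes, NDUFA10 carried the strongest peak. It encodes an accessory subunit of complex I, the NADH dehydrogenase that feeds electrons into the chain. Its peak on chromosome 2 spanned 240025332 to 240025618, with a fold of 7.71, a −log10 q of 7.67 and 9 fragments (95% interval 4.12 to 17.1). The summit lay 79 bp upstream of the TSS in the authors' table, at 240025402, and 139 bp upstream of the RefSeq gene start, which lies 60 bp further downstream. No other gene start lay within 1 kb. The fold exceeded that of 82.0% of promoter peaks.

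NDUFB5, another accessory subunit of complex I, and MRPL47, a protein of the large subunit of the mitochondrial ribosome, are transcribed away from each other on chromosome 3, with starts 141 bp apart. A single peak, at 179604640 to 179604902, covered both starts. Its fold was 4.81, with a −log10 q of 2.87 and 5 fragments (95% interval 1.62 to 11.7). Its summit lay between the starts, 52 bp upstream of NDUFB5 and 89 bp upstream of MRPL47. The peak cannot be assigned to either gene, and its fold exceeded that of 19.8% of promoter peaks.

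COX7C, a small subunit of cytochrome c oxidase, the terminal enzyme of the chain, had the weakest of the 6 peaks. On chromosome 5 it spanned 86617960 to 86618137, with a fold of 4.01, a −log10 q of 1.77 and 4 fragments (95% interval 1.09 to 10.2). The lowest −log10 q in the whole list was 1.32. The COX7C peak was also the only one of the 6 that did not cover the TSS in the authors' table. It began 19 bp downstream of it, and its summit lay 116 bp downstream. A further 407 peaks of the list had exactly this fold.

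MRPL55 encodes another protein of the large mitochondrial ribosomal subunit. Its peak on chromosome 1, at 228109105 to 228109377, had a fold of 9.63, a −log10 q of 11.6 and 11 fragments (95% interval 5.49 to 19.7). The summit lay 30 bp downstream of the TSS in the authors' table. Chromosomes were divided into fixed windows of 1 Mb, and the one with this summit held 19 peaks, the only member window with 10 or more. Of these 19, 13 lay within 20 kb of the cluster of 5S rRNA genes, which begins 501 kb from the summit, and 3 other peaks lay within 100 kb of MRPL55, the nearest 19.5 kb from its summit. The background at the MRPL55 summit was 0.246 fragments, as at LIAS, COX7C and many other promoter peaks, and no recovered value among them was lower. It therefore does not show whether the background in this window is ordinary.

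LIAS encodes lipoyl synthase, an iron-sulfur enzyme that completes the lipoate cofactor on pyruvate dehydrogenase and related complexes. Its peak on chromosome 4, at 39458913 to 39459084, had a fold of 6.42, a −log10 q of 5.47 and 7 fragments (95% interval 2.81 to 14.4). The summit lay 31 bp downstream of the LIAS TSS in the authors' table and 107 bp upstream of that of RPL9, a protein of the cytosolic ribosome. Those starts are 76 bp apart on opposite strands, and the peak covered both. The RefSeq start of LIAS lies 32 bp further downstream than that of the authors' table, which puts the summit 1 bp upstream of it.

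PTRH2 encodes a peptidyl-tRNA hydrolase, also known as BIT1, and had the strongest peak. On chromosome 17 it spanned 59707504 to 59707723, with a fold of 15.2, a −log10 q of 23.7 and 20 fragments (95% interval 12.2 to 30.9). It ranked 63 in the whole list and 6 among promoter peaks. The summit lay 46 bp upstream of the PTRH2 TSS in the authors' table and 10 bp upstream of that of VMP1, an autophagy membrane protein transcribed the other way from a start 56 bp off. The RefSeq start of PTRH2 lies 168 bp further downstream than that of the table, which puts the summit 214 bp upstream of it, so the peak is nearer to VMP1 under either annotation.

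Some of these peaks thus lay at shared starts. Of the 6, 3 lay within 1 kb of the starts of more than 1 protein-coding gene, each a divergent pair with starts 56 to 141 bp apart. Among all 222 promoter peaks, 39 did (17.6%). Peaks were chosen through genes, so a peak at several starts had more ways to be chosen, which can raise the share among the 6. With 6 peaks, no difference between these shares was tested. At those 3 peaks the data do not tell which of the paired genes is the one bound. In 1 of the pairs, MRPL47 with NDUFB5, both are mitochondrial genes.

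The 3 pairs that were not kept lay far from the starts. MRPL55 was paired with peaks 19.6 kb downstream and 31.0 kb upstream, each with a fold of 5.62. PTRH2 was paired with a peak 21972 bp downstream with a fold of 4.82.

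Sequence was a property that the choice of genes had not used. The core TGACG was present in the windows at 5 of the 6 peaks, against 24.6% of all 35116 RefSeq promoter windows. The exception was COX7C. Its window ended 67 bases before the summit, so most of that peak was not searched. In the other 5 the summit lay inside the window, though at MRPL55 the window covered only 128 of the 273 bases of the peak. Over the whole list, 138 peaks had their summit inside a promoter window (1 window per peak, the nearest start). Of these windows, 123 held the core (89.1%, 95% Clopper-Pearson interval 82.7 to 93.8). Without the 5 member peaks this was 118 of 133 (88.7%). The members thus resembled the other peaks with a summit in a promoter window in this respect, and nothing in the count sets them apart. The windows with a summit were also richer in CpG dinucleotides, which the core contains, with a median of 27 against 14 over all windows. The member windows held 15 to 34. The part of base composition in the difference was not tested.

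**Figure D3:**
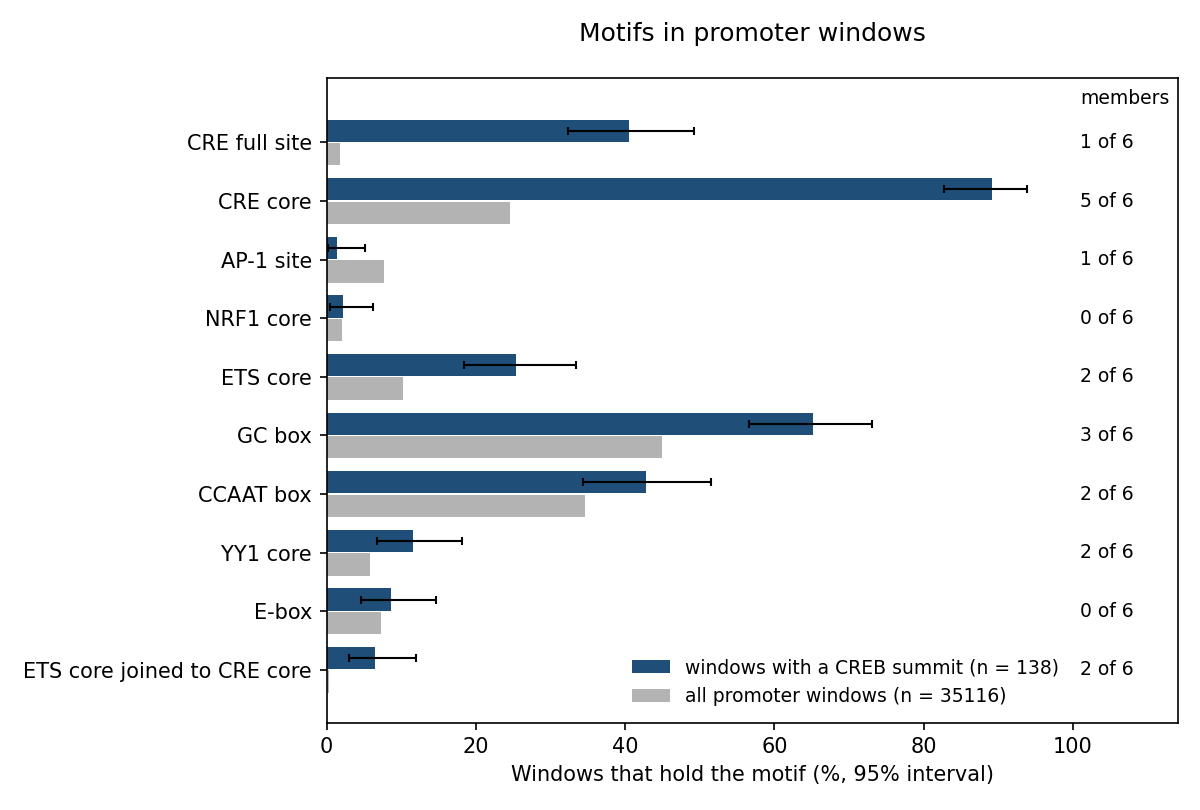
Share of promoter windows of 300 bases that hold each motif, for the 138 windows with a CREB summit (dark bars, with 95% Clopper-Pearson intervals) and for all 35116 windows (grey); the right-hand column counts the 6 member windows. The CRE core stood at 89.1% against 24.6% and the full site at 40.6% against 1.85%. The AP-1 bars count TGANTCA, with any central base.

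The full palindrome TGACGTCA was found at 1 member, NDUFA10, at positions 240025383 to 240025390. It occurred in 1.85% of all windows and in 40.6% of those with a summit (56 of 138, interval 32.3 to 49.3). Its 2 overlapping cores, one on each strand, are the only ones in the NDUFA10 window. They lie just downstream of the TSS of the authors' table when read along the gene, and upstream of the RefSeq start. The distance from the summit was 91 bases.

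At 3 further members the sequence differed from the palindrome by 1 base. The MRPL55 window held TGACGTCG at 228109290 to 228109297, with its core 11 bases from the summit, and a further core 41 bases from it. The PTRH2 window held TCACGTCA, which is TGACGTGA in the direction of VMP1, at 59707644 to 59707651, and the summit fell on its core. The LIAS window held TGTCGTCA at 39458922 to 39458929, and a further core nearer to the summit, at 85 bases. With at most 1 mismatch the palindrome was thus found in 4 of the 6 windows, against 11.8% of all windows and 62.3% of those with a summit (86 of 138).

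The peaks at MRPL47 with NDUFB5 and at PTRH2 with VMP1 had a longer stretch in common. In both the CRE core directly followed CCGGAAG, the core of the site of ETS factors such as GABP, which is known as a regulator of nuclear genes for respiration. The joined 12 bases, CCGGAAGTGACG, stood at 179604666 to 179604677 on chromosome 3 and at 59707637 to 59707648 on chromosome 17. They occurred in 0.273% of all windows (96 of 35116) and in 6.52% of those with a summit (9 of 138, interval 3.03 to 12.02). This combination was chosen after the sequences had been read, and both peaks were among the 9.

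**Figure D4:**
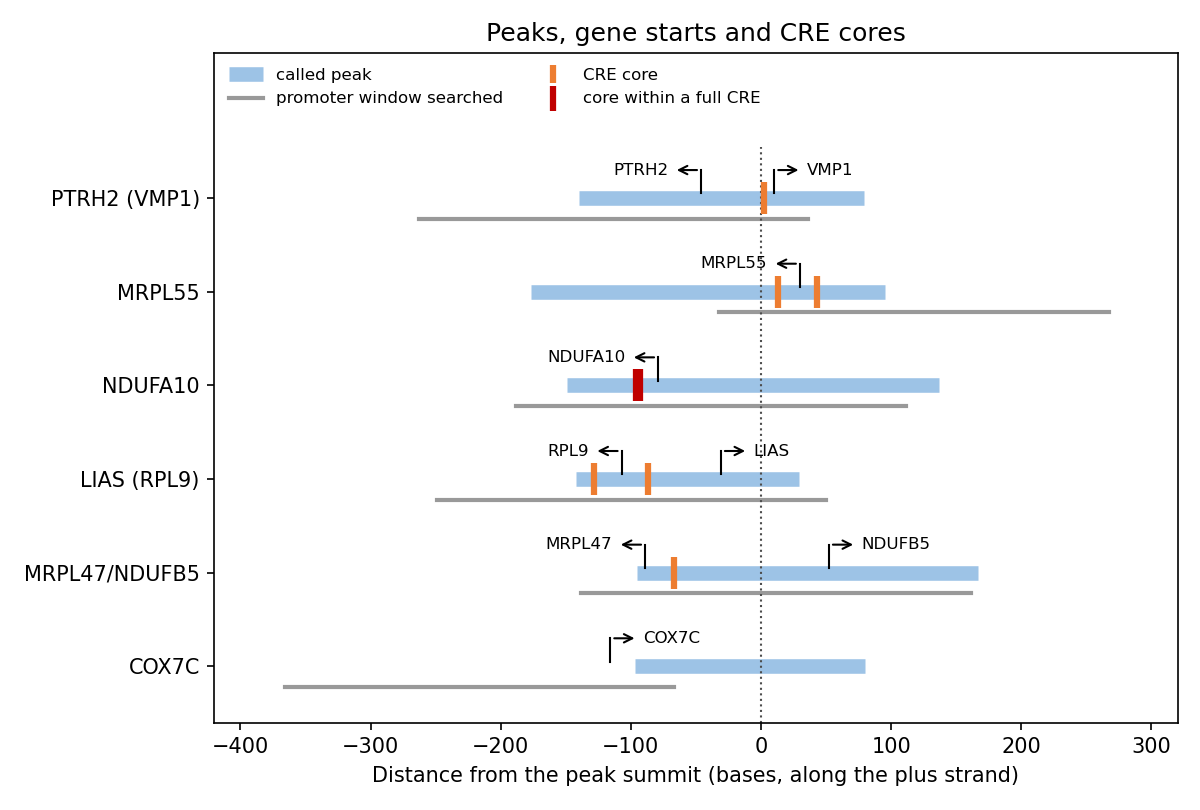
The 6 called peaks (blue), the promoter window searched (grey line), gene starts of the authors' table (arrows in the direction of transcription) and CRE cores (orange; red within a full CRE), by distance from the summit in bases along the plus strand. Cores lie 0 to 126 bases from the summit, and the COX7C window ends before its summit.

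Of the members, only PTRH2 and MRPL55 had a CRE core within 50 bases of the summit. The nearest lay at 0 bases at PTRH2, 11 at MRPL55, 65 at MRPL47, 85 at LIAS and 91 at NDUFA10. Over the 123 peaks with a summit in a promoter window that held a core, the median was 33 bases (quartiles 12 to 60.5). The last 3 members named thus lay beyond the upper quartile. Of the 138 peaks, 84 had a core within 50 bases (60.9%). The same stretch relative to the gene start held a core in 6.13 to 10.7% of all windows, depending on the member. The summits at MRPL47, LIAS and NDUFA10 rest on 5 to 9 fragments, and that of PTRH2 on 20.

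Sites of other factors known at mitochondrial gene promoters were looked for in the same windows. The core of the NRF1 site (CGCATGCG), a site of nuclear respiratory factor 1, was in none of the 6, and in 2.02% of all windows. The ETS core CCGGAAG was in those of MRPL47 and PTRH2 (10.3% of all), and the YY1 core AAGATGG in those of MRPL47 and COX7C (5.84%). The GC box GGGCGG was in those of NDUFA10, MRPL55 and COX7C (45.0%), and CCAAT in those of MRPL47 and LIAS (34.6%). The E-box CACGTG, bound by MYC and MAX, was in none (7.26%). The pattern TGANTCA is a loose form of the AP-1 site of FOS and JUN that allows any central base. It was in the COX7C window alone (7.71% of all), where the match read TGATTCA and lay outside the called peak. Both strands were searched, matches may overlap, and a match describes the sequence only.

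The other genes of these pathways were then counted in 13 lists of nuclear genes, which included the 7 members. Of 283 genes, 9 had a promoter peak (3.18%, 95% interval 1.46 to 5.95). Because the members were chosen for this, that count is raised by the choice. Without them it was 2 of 276 (0.725%, interval 0.0879 to 2.59), which is lowered, as genes were taken out for having a peak. The 1.33% of all protein-coding genes keeps every gene with a peak, so neither count is a fair comparison with it. Within 50 kb, 29 of the 283 genes had a peak with the members (10.2%), and 22 of the 276 without them (7.97%). The share of all protein-coding genes was 8.47%, and the same limit holds for this comparison.

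The 2 further genes were PET100 and IBA57. PET100, an assembly factor of cytochrome c oxidase, had a summit 92 bp upstream of the TSS whose fold was 7.22, on 8 fragments (3.45 to 15.8). It shared the peak with XAB2, a splicing and repair factor. Its window held 3 CRE cores, the nearest 64 bases from the summit. IBA57, which takes part in making the iron-sulfur clusters that LIAS needs, had a summit 336 bp downstream with a fold of 6.41 and 7 fragments. It lies in the same 1 Mb window as MRPL55, and its summit was outside its promoter window, which held no CRE core.

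By complex, and again without the members, 1 of 23 assembly factors of complex IV and 1 of 13 genes of lipoate synthesis and transfer had a promoter peak. No gene did among the other 35 complex I subunits, 17 complex IV subunits, 13 peptidyl-tRNA hydrolase and translation factor genes and 47 genes of the large mitochondrial ribosomal subunit, which are the other lists that hold members. With the members these counts were 2 of 37, 1 of 18, 1 of 14 and 2 of 49. Every gene with a promoter peak there was a member, so each 0 follows from taking the members out. The other 7 lists had none either. They were complex I assembly, complex II, complex III with cytochrome c, ATP synthase, the lipoate-dependent enzymes, the small mitochondrial ribosomal subunit and the regulators of mitochondrial biogenesis. In each of these 7 lists, which hold no member, the 95% Clopper-Pearson upper limit of the share was 10.6 to 36.9%. That lies above the 1.33% of all protein-coding genes, so a count of 0 sets none of them apart from it. The regulators included PPARGC1A, NRF1, GABPA, ESRRA and TFAM. None of these 5 was paired with a peak within 50 kb. Of all 17 regulators 1 was (5.88%), POLG, with a fold of 4.01 at 11.2 kb. The share of all protein-coding genes was 8.47%, so a count of 0 among the 5 does not set them apart.

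A further 20 list genes had a peak only at 1 to 50 kb. Taking the nearest peak of each gene, the highest folds were those paired with NDUFB8 (13.6 at 48.2 kb), MRPL49 (12.2 at 37.98 kb), TSFM, a mitochondrial elongation factor (10.3 at 10.8 kb), and NDUFB10 (9.62 at 12.4 kb). They were followed by SDHA of complex II (7.17 at 8.73 kb), COA3 (6.85 at 34.4 kb), COX6B1 (6.08 at 17.3 kb), MRPS14 (5.62 at 23.9 kb), MRPL51 (5.32 at 44.6 kb), and NDUFA13 and LIPT2 with 4.82 each. At 5 of the 20 the peak lay within 1 kb of the start of another protein-coding gene. These were MRPL49 (peak at CDCA5 and ZFPL1), TSFM (METTL1 and EEF1AKMT3), NDUFB10 (TBL3), COA3 (PSME3) and MRPS14 (CACYBP). The TSFM peak had an expected background of 2.97 fragments, above that of every member peak.

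The mitochondrial genome, which encodes 13 proteins of the same complexes, carried 7 peaks of its own. Their folds were low, 2.24 to 4.23, on many fragments, 36 to 68, over backgrounds of 13.03 to 24.98. The highest, with a −log10 q of 18.3, spanned 8392 to 9531 over ATP8, ATP6 and COX3. Others overlapped COX1 (fold 2.72), ND2 (2.64, with the summit in the tRNA gene TRNQ), the rRNA gene RNR2 (2.49) and COX2 (2.34). The rest overlapped ND4 with ND4L (2.31) and the rRNA gene RNR1 (2.24, with the summit in the tRNA gene TRNV). These peaks were 191 to 1320 bp wide (median 519), against 156 to 4171 bp (median 236) for the other 5278 peaks of the list and 172 to 287 bp for the 6 member peaks. Cells hold many copies of mitochondrial DNA, and the part of copy number in these peaks was not tested.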

How the data were processed

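CREB ChIP DNA of NGP cells was sequenced beside an input library. The reads were handled with Bowtie2 and MACS2 on hg38, per the submitters' processing notes. The sources used here give no versions, settings or read filters. The deposited peak list gives, for the 1 ChIP library, a fold (a ratio), a −log10 p-value, a −log10 q-value and a score per peak, and the deposited table gives that score again beside each peak and TSS, per the file headers. The input library itself was not analysed here.

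Peaks and TSS were joined by peak name. A promoter peak has its summit at most 1 kb from a TSS of the authors' table whose gene is protein-coding in RefSeq. The RefSeq genes were those of GRCh38.p14 on chromosomes 1 to 22 and X, and 283 of 283 list genes matched. Fragments were recovered by taking fold as (fragments + 1) / (background + 1) and p as the Poisson probability above that number. A whole number fitted within 0.001 (relative 1e-05 above a −log10 p of 100) in 5280 of 5285 peaks, and only 1 number did so at each member peak. Motifs were exact matches on both strands. Recovery and motif search were tested on simulated data. Python 3.11.15, pandas 2.3.3 and scipy 1.17.1 were used.

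The members and lists were chosen with earlier results of these data known. Genes named are the 7 members, genes starting within 1 kb of their summits, list genes with a promoter peak, and up to 10 list genes with the highest fold at 1 to 50 kb, with ties. The MRPL55 window counts, the 5 regulators named, POLG, the joined motif and the genes of the closing section were chosen after their values were seen. An item of the lists is not reported here and is left out of their counts. With 1 library, no test was made. Alternatives were a −log10 q of at least 5, other distances, peaks outside fixed 1 Mb windows of 10 or more peaks, and other forms of the motif.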

Additional observations from a re-analysis of the deposited data

How the results depend on the processing

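With peaks of a −log10 q of at least 5 only, 4 of the 7 genes kept a promoter peak (NDUFB5, MRPL47 and COX7C did not), the median fold of the member peaks was 8.67 in place of 7.07, and 6 list genes had a promoter peak in place of 9. Without the peak at MRPL55, which lies in a 1 Mb window of 19 peaks, the median fold was 6.42, as it was with 1 value per gene. Requiring the full CRE left 1 of the 6 windows. Counts of members at 500 bp, at 200 bp and by peak edge stayed at 7, list genes were 9 at 500 bp, 11 at 5 kb and 7 outside dense windows, and 3 shared peaks were found with all symbols, at 500 bp and at 2 kb. The nearest CRE core lay within 100 bases of the summit in all 5 windows that held one. No paired analysis was possible because each group has 1 library. Depth limits these values: 3 of the 6 peaks rest on at most 7 fragments, and a promoter without a peak may hold CREB below what this library shows.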

Other observations

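Other genes of mitochondrial function outside the lists also had a promoter peak; they were picked by eye from the marked genes after their values were seen. FDXR and FDX2, ferredoxin reductase and a ferredoxin of iron-sulfur cluster synthesis, had folds of 5.22 (summit 528 bp upstream, 6 fragments) and 3.86 (340 bp downstream, 4 fragments). DDX28, an RNA helicase of mitochondrial ribosome assembly, had a fold of 5.75 with its summit 25 bp upstream and 15 bases from a full CRE, at a peak shared with DUS2. ELAC2, which trims the ends of mitochondrial and nuclear tRNAs, had a fold of 4.01 at 279 bp downstream.

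GHITM, an inner membrane protein, had a fold of 4.82 at 55 bp downstream, with a CRE core 59 bases from the summit. PISD, which makes phosphatidylethanolamine in mitochondria, had a fold of 5.12 at 456 bp downstream. YME1L1, an inner membrane protease, had a fold of 4.56 at 803 bp upstream, at a peak shared with MASTL. RAB5IF, a factor of respiratory chain assembly, had a fold of 4.90 at 961 bp upstream. Its promoter window held a full CRE, but 809 bases from the summit. The promoter windows of FDXR, FDX2, ELAC2 and PISD held no CRE core, and the summits at these 4 genes lay outside them. Each of these 8 genes had at most 7 fragments at the summit.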
